A study of Mus musculus with 28 samples.

Results

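Expression of the connexins Gja1, Gja4, Gja5, Gjb1, Gjb2, Gjb5 and Gjc1 and of the pannexin Panx1 was examined in wild-type mIMCD-3 cells, which are epithelial cells of the mouse inner medullary collecting duct, immortalised by an SV40 transgene. These 8 genes were taken by symbol from the 45706 gene rows of the RNA sequencing tables, and each was listed once. The 28 libraries comprised 4 each of the polyclonal WT line, of monoclonal WT5 and of subclones 1 to 5. WT5 was grown from a single sorted cell of the polyclonal line, and each subclone from a single sorted cell of WT5, so that every monoclonal group stands for 1 clone. All groups were unedited and untreated, and RNA was isolated 4 days after the cells had reached confluency. Values are TPM (a level scaled to transcript length and to the total of the library), as deposited by the authors. Polyclonal WT cells and WT5 were sequenced at different time points with different read lengths and layouts, and the effects of line and of sequencing run cannot be told apart when these lines are compared. WT5 and the subclones stand in separate tables, and a difference between tables and a difference between these lines cannot be told apart either. The subclones were also expanded for some weeks after sorting before RNA was isolated, according to the paper. This time in culture cannot be told apart from line or table. Where the subclones are set beside polyclonal WT cells, line, table, sequencing run and time in culture cannot be told apart. The subclones stand together in 1 table.

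Connexins assemble into hexameric channels in the plasma membrane, and docking of such channels from neighbouring cells forms a gap junction, through which ions and small metabolites pass. Pannexins form channels that do not dock between cells, and Panx1 is known for the release of ATP. In the kidney tubule, connexins and pannexins are studied mainly for coupling of epithelial cells and for ATP release into the lumen, where ATP acts on purinergic receptors to inhibit the transport of salt and water.

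The RefSeq entries for the start sites of Gja1, Gjb2 and Panx1 on GRCm38.p6 are shown first, because these are the members with more than 1 TPM in a group whose levels differed between WT5 and polyclonal WT cells. Each sequence is the 250 bases before the start, read in the direction of transcription. Gja1 lies on the plus strand, with its window at chr10:56377050-56377299, and Gjb2 and Panx1 lie on the minus strand, with windows at chr14:57104703-57104952 and chr9:15045479-15045728. Capitals mark matches on either strand to the GC box (GGGCGG), the TATA box (TATAAA), the CCAAT box (CCAAT) or the AP-1 site (TGANTCA), letters that do not overlap between these motifs here.
Gja1: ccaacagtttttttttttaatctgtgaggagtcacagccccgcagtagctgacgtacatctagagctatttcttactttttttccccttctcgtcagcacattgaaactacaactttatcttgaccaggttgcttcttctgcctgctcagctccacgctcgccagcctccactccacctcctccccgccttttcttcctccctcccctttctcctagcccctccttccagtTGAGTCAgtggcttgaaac
Gjb2: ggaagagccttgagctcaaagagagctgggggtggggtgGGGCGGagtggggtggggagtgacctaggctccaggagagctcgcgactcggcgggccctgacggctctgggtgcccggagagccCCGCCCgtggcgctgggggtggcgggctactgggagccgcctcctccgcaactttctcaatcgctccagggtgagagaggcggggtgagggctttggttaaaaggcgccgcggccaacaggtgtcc
Panx1: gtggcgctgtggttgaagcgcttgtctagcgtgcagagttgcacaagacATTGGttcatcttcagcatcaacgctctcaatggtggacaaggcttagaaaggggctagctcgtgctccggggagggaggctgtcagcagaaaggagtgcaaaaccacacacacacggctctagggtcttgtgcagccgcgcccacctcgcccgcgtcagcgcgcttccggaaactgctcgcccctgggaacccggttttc
The Gja1 window held 1 match to the AP-1 letters, which occur in 6.75% of all 32851 windows of this length. The Gjb2 window held 2 matches to the GC box, found in 32.7% of windows, and the Panx1 window 1 match to the CCAAT box, found in 33.8%. Gjb2 had 18 CG dinucleotides and Panx1 17, both above the upper quartile of 16 over all windows, whereas Gja1 had 6, which equals the median of all windows. The letters of the TATA box, found in 12.4% of windows, were in none of these 3 windows. Windows were found for 7 of the 8 members, and the exception was Gjc1.

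The label of the cells was checked against marker genes. All 6 epithelial markers (Epcam, Cdh1, Krt8, Krt18, Krt19 and Cldn4) had a mean of at least 1 TPM in each group, and their summed level was 1805 to 2102 TPM in polyclonal WT cells, 4033 to 4190 TPM in WT5 and 2383 to 3122 TPM in the subclones. Cdh1 went against this sum, with 139.73 to 152.11 TPM in polyclonal WT cells and 95.77 to 99.55 TPM in WT5. The other epithelial markers had higher TPM in WT5. Aqp2, the vasopressin-regulated water channel that defines principal cells, was listed at 0 in all libraries, as was Foxi1, which defines intercalated cells. Of the 10 principal cell markers listed, 6 had a mean of at least 1 TPM in polyclonal WT cells. In WT5 and in each subclone, 3 had such a mean. Of the 5 intercalated cell markers listed, 1 reached this mean in polyclonal WT cells and 0 in every other group. Between WT5 and polyclonal WT cells, 6 principal cell markers could be tested (Avpr2, Scnn1a, Scnn1g, Hsd11b2, Gata3 and Hoxb7). At an adjusted p-value below 0.01 (limma, as described below), 5 were lower in WT5 and Hsd11b2 was higher. Of all genes tested, 30.9% were lower and 34.5% higher at this threshold. The effects of line and of sequencing run cannot be told apart here. Across genes, replicate libraries correlated with r of at least 0.986 (Pearson, log2(TPM)).

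Among the members, Gjc1 (Cx45, a connexin of the early heart, the conduction system and vascular smooth muscle) was by far the most abundant in every group. Its level was 43.97, 44.81, 43.95 and 49.50 TPM in the polyclonal libraries and 51.51, 56.57, 48.98 and 50.70 TPM in WT5. The ranges overlapped, since the highest polyclonal library exceeded the lowest WT5 library. In the subclones it lay between 41.79 and 74.15 TPM, and the highest value belonged to replicate 1 of subclone 1. The group means ran from 45.6 TPM in polyclonal WT cells to 55.8 TPM in subclone 2, and in that order the libraries of neighbouring groups overlapped.

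**Figure D1:**
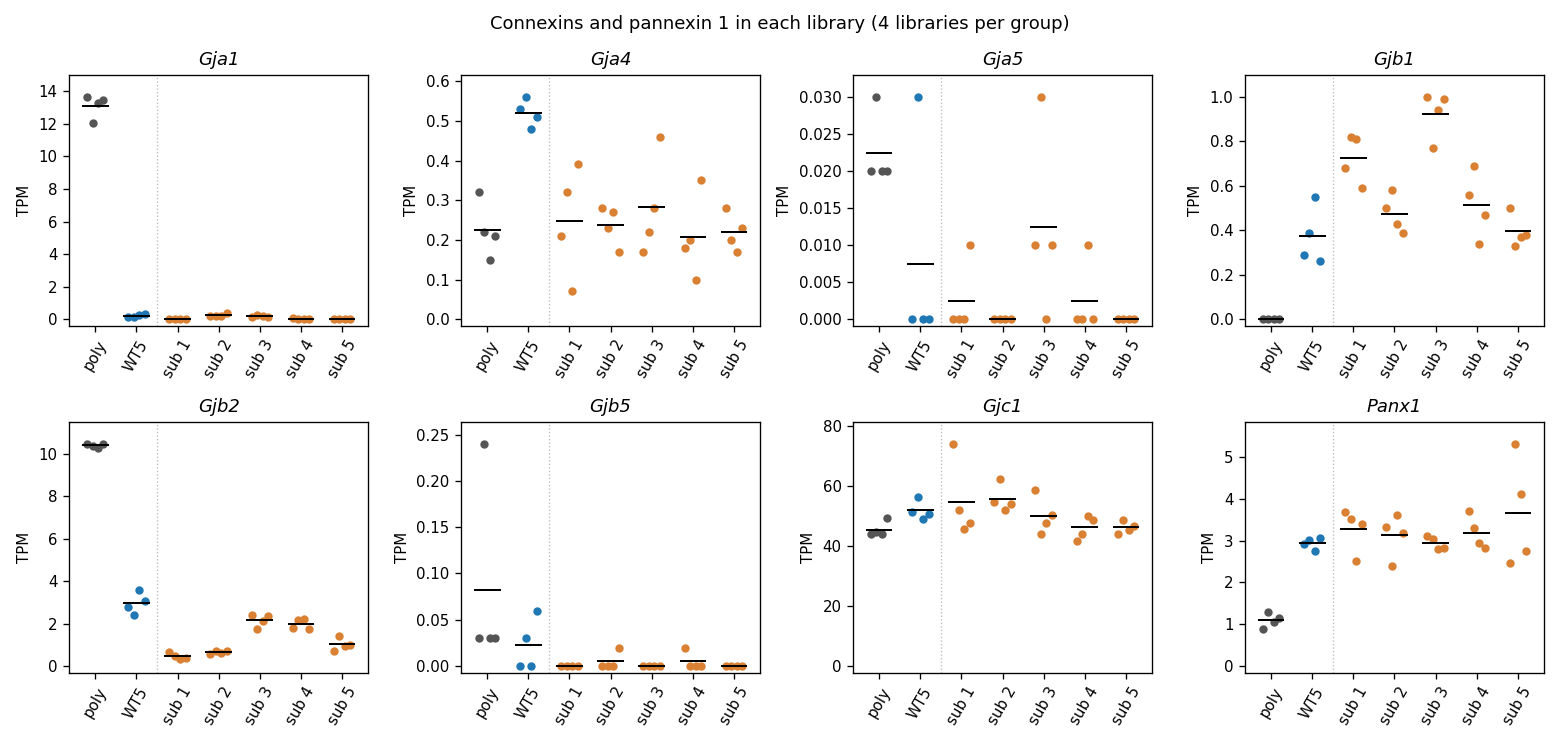
TPM of the 8 members in each of the 28 libraries (points) with group means (lines), each panel on its own linear axis from 0; poly is polyclonal WT, sub is subclone, and the dotted line divides the tables. Gja1 and Gjb2 are highest in polyclonal WT cells, Gjb1 is at 0 there, Panx1 is lowest there, and Gjc1 lies between 41.79 and 74.15 TPM throughout.

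Gja1 (Cx43, the most widely expressed connexin) had 13.65, 12.03, 13.31 and 13.48 TPM in polyclonal WT cells, and 0.13, 0.15, 0.26 and 0.31 TPM in WT5. The groups did not overlap, and the ratio of the means, 13.1 ± 0.738 TPM against 0.213 ± 0.0866 TPM (SD, n = 4 each), was 61.7-fold. Gjb2 (Cx26, the connexin of the cochlear supporting cells, also found in liver and skin) followed with 10.47, 10.38, 10.27 and 10.46 TPM in polyclonal WT cells and 2.78, 2.41, 3.60 and 3.06 TPM in WT5. These groups did not overlap either, with a mean of 10.4 ± 0.0926 TPM in polyclonal WT cells and 2.96 ± 0.501 TPM in WT5 (SD, n = 4 each), a ratio of 3.51.

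Panx1 showed the opposite order, with 0.88, 1.3, 1.05 and 1.14 TPM in polyclonal WT cells and 2.91, 3.02, 2.74 and 3.06 TPM in WT5. Every WT5 library exceeded every polyclonal library, and the mean was 2.68-fold higher in WT5. Gja4 (Cx37, a connexin of vascular endothelium and of the oocyte) was low in both lines, with 0.32, 0.22, 0.15 and 0.21 TPM in polyclonal WT cells and 0.53, 0.56, 0.48 and 0.51 TPM in WT5. Gjb1 (Cx32, the connexin of hepatocytes and myelinating Schwann cells) was listed at 0 in all 4 polyclonal libraries and at 0.29, 0.39, 0.55 and 0.26 TPM in WT5. For Panx1, Gja4 and Gjb1, as for Gja1 and Gjb2, the libraries of the 2 lines did not overlap, which held for 53.8% of the genes above 0 TPM in any library of these lines.

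Gja5 (Cx40, a connexin of arterial endothelium, atrial muscle and renin cells) and Gjb5 (Cx31.1, a connexin of stratified epithelium) were near the limit of the tables. Gja5 did not exceed 0.03 TPM in any library and was at 0 in 18 of 28. Its low values are uncertain in origin, since 21% of the stretches of 50 bases in its longest transcript also occur in a transcript of Zfp697, and since its locus overlaps 4 genes annotated on the other strand while strandedness of the libraries is not given in the sources used here. Gjb5 had 0.24 TPM in polyclonal replicate 2, at most 0.06 TPM elsewhere, and was at 0 in 20 of 28 libraries. Both genes were above 0 in all 4 polyclonal libraries, so that their zeros lay in WT5 and the subclones. Polyclonal libraries had 18681 to 19272 genes above 0 TPM, WT5 libraries 16318 to 16536 and subclone libraries 16270 to 17004. Whether this difference bears on the zeros was not tested. The lowest value above 0 in the tables is 0.01 TPM, and how many reads stand behind it is unknown because TPM keeps no depth.

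To compare WT5 with polyclonal WT cells, log2(TPM) of the 13723 genes above 0 in all 8 libraries was turned into z-scores, library by library, and groups were compared with limma. A gene was called at an adjusted p-value below 0.01 (Benjamini-Hochberg over all genes tested), and 1 z-score unit was 8.56-fold. Of the 8 members, 5 could be tested, because Gja5, Gjb1 and Gjb5 were at 0 in some library. Of these, 4 were called, Gja1 and Gjb2 lower and Gja4 and Panx1 higher in WT5, where 65.5% of all genes tested were called, 30.9% lower and 34.5% higher. With this background the count does not set the members apart. The study further required that z-scores differ by more than 1, which Gja1 alone of the 5 met, as did 5.43% of all genes.

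Gja1 was lower in WT5 by a z-score difference of -2.03 (SE 0.0864, adjusted p = 4.94e-07), which is a log2(TPM) difference of -6.04 (SE 0.275). For Gjb2 the z-score difference was -0.67 (SE 0.0365, adjusted p = 1.77e-06) and the log2(TPM) difference -1.83 (SE 0.113). For Panx1 it was 0.38 (SE 0.0411, adjusted p = 6.95e-05), and the log2(TPM) difference 1.44 (SE 0.115). These differences are to be read against a median log2(TPM) difference of 0.24 over all genes tested. Gja4 was higher by a z-score difference of 0.32 (SE 0.0674, adjusted p = 0.00315), which lost its call by the unequal-variance test of the study's methods (adjusted p = 0.0280), with a pseudocount of 1 (0.0651) and when TPM was rescaled without predicted and mitochondrial genes (0.0205). Without polyclonal replicate 4 the adjusted p of Gja4 was 0.0113. Gjc1 differed by -0.0054 z-score units (SE 0.0227, adjusted p = 0.838), with a log2(TPM) difference of 0.19 (SE 0.0628) that lies below the median of all genes, and its sign differs between these scales.

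**Figure D2:**
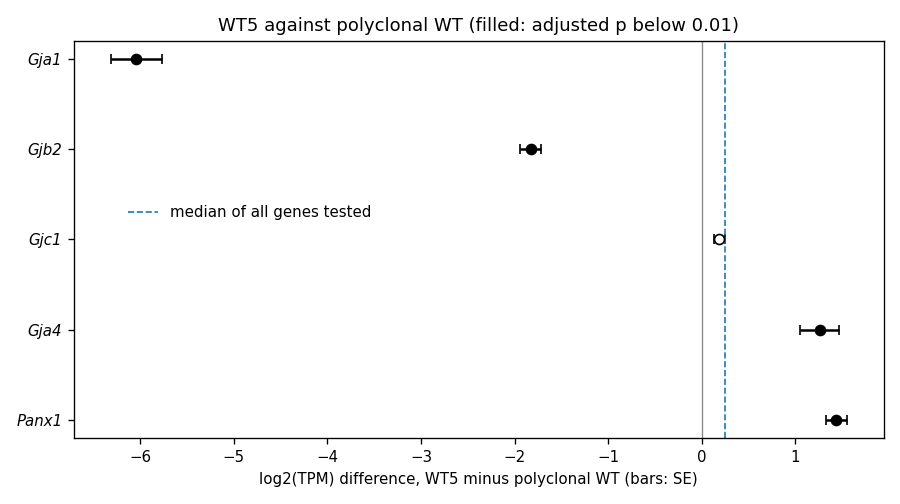
Difference in log2(TPM), WT5 minus polyclonal WT, on the x axis for the 5 members that could be tested. Points are estimates with SE, filled where the adjusted p-value of the z-score difference was below 0.01. Gja1 and Gjb2 lie left of 0, Gjc1 lies near the dashed median of all genes (0.24), and Gja4 and Panx1 lie to its right.

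For the members with zeros, log2(TPM + 0.1) over the 23738 genes above 0 in any of the 8 libraries was used, where 56.5% of genes were called, and 36.3% were called higher. Gjb1 was higher in WT5 (adjusted p = 5.85e-06), and no fold is given because it is listed at 0 in polyclonal WT cells. The exact permutation test of mean TPM gave p = 0.0286 for Gjb1, the smallest that 4 against 4 libraries allow (two-sided). Gja5 (adjusted p = 0.0240) and Gjb5 (adjusted p = 0.927) were not called, and no direction is given for either because it differed between the scaled and the unscaled values.

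The levels of the 7 connexins were also summed, which leaves out other connexin genes. The sum was 69.4 ± 2.89 TPM in polyclonal WT cells and 56.0 ± 2.80 TPM in WT5 (SD, n = 4 each), and the lowest polyclonal library (67.71 TPM) lay above the highest of WT5 (60.14 TPM). Gja1 made up 18.9% and Gjb2 15.0% of this sum in polyclonal WT cells, against 0.383% and 5.32% in WT5. Gjc1 made up 65.6% in polyclonal WT cells and 92.6% in WT5, while its own level was not called between these lines, and in the subclones its mean share lay between 93.3% and 97.4%. No test was run on the sum or on these shares.

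**Figure D3:**
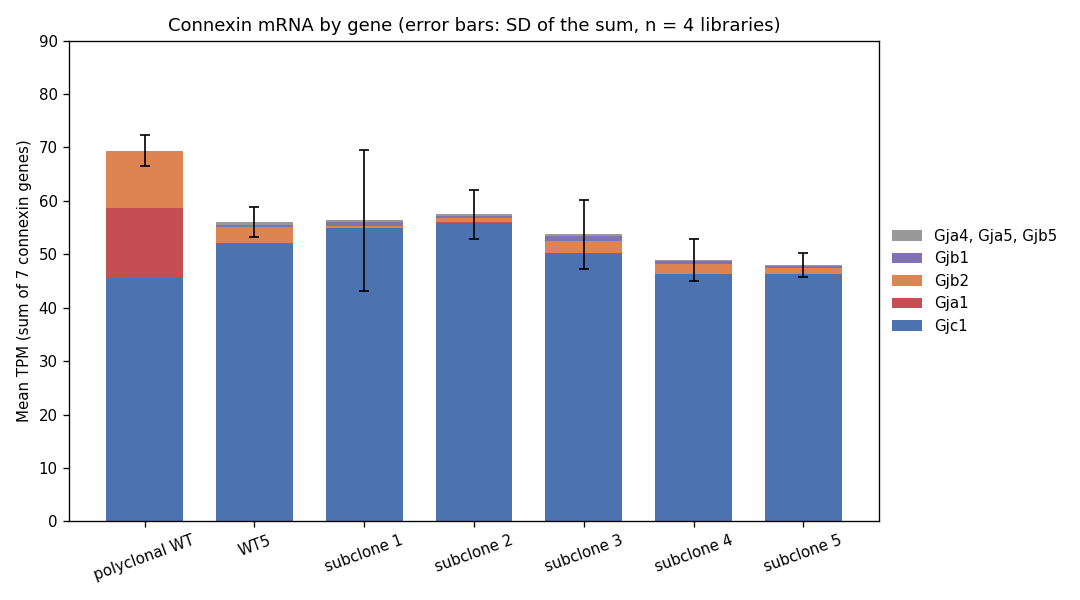
Mean TPM of the 7 connexins stacked by gene in the 7 groups, with the y axis from 0 and error bars for the SD of the sum over 4 libraries. Gjc1 is the largest part in every group, Gja1 and Gjb2 are visible parts in polyclonal WT cells, and the sum is 69.4 TPM there and 56.0 TPM in WT5.

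On GRCm38, Gja4 (chr4:127311421-127314039) and Gjb5 (chr4:127354809-127358181) both lie on the minus strand of chromosome 4. The other members lie on other chromosomes, with Gja1 at chr10:56377330-56402513, Gjb2 at chr14:57098600-57104702, Gjc1 at chr11:102799579-102819700, Panx1 at chr9:15002128-15045478, Gjb1 at chrX:101376378-101385629 and Gja5 at chr3:96904693-97077416.

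Markers of other cell types that express these connexins are given beside Gja1, Gja4 and Gjb2. The summed level of 6 fibroblast markers was 0.60 to 1.13 TPM in polyclonal WT cells and 0.60 to 2.12 TPM in WT5, and Lum was at 0 in all libraries. Within this list Dcn had 0.50 to 1.01 TPM in polyclonal WT cells and 0 to 0.08 TPM in WT5, while Col1a1 had 0 to 0.16 TPM and 0.57 to 2.06 TPM. The summed level of 5 smooth muscle and renin cell markers was 6.16 to 6.53 TPM and 3.49 to 5.12 TPM in these lines. In the subclones it was 0.59 to 2.42 TPM. Within this list Acta2 had 2.75 to 3.73 TPM in polyclonal WT cells and 0.91 to 1.34 TPM in WT5. Tagln had 2.66 to 3.39 TPM and 2.5 to 3.74 TPM. For 6 endothelial markers the summed level was 0.15 to 0.35 TPM and 1.35 to 1.77 TPM. Flt1 accounted for 1.33 to 1.77 TPM of it in WT5. Pecam1 had 0.13 to 0.29 TPM in polyclonal WT cells and 0 to 0.07 TPM in WT5. Cdh5 was at 0 in both lines and Emcn in all libraries. The 5 stratified epithelium markers summed to 4.22 to 5.22 TPM and 4.74 to 5.87 TPM, nearly all of it Krt10 (3.90 to 5.12 and 4.72 to 5.83 TPM), while Krt5, Krt14 and Ivl did not exceed 0.07 TPM in either line and Trp63 had 0.07 to 0.26 TPM in polyclonal WT cells and 0 in WT5. The part of these cell types in the connexin levels was not tested, and in bulk samples fewer cells of a type and less RNA per cell cannot be told apart.

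Among the members with a mean of at least 1 TPM over WT5 and the subclones (Gjb2, Gjc1 and Panx1), Gjb2 had the widest range of subclone means on the log2(TPM + 0.1) scale. It had 2.42, 1.76, 2.12 and 2.37 TPM in subclone 3 and 1.79, 2.16, 2.20 and 1.76 TPM in subclone 4, but 0.69, 1.43, 0.96 and 1.00 TPM in subclone 5. Lower still were subclone 2, with 0.59, 0.70, 0.62 and 0.72 TPM, and subclone 1, with 0.65, 0.46, 0.34 and 0.39 TPM. No library of subclones 1, 2 and 5 reached the lowest of subclones 3 and 4. This split was drawn from the Gjb2 values themselves, and the share of all genes with such a gap was not counted. The highest library of subclone 3 lay just above the lowest of WT5. Against the mean of 2.96 TPM in WT5, the mean of subclone 1 was 6.44-fold lower, that of subclone 2 was 4.51-fold lower and that of subclone 5 was 2.90-fold lower.

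Each subclone was compared with WT5 over the 13860 genes that had no TPM of 0 in these 24 libraries, where 1 z-score unit was 7.94-fold. These comparisons share the WT5 libraries. Log2 differences from WT5 are given below with their own SE, while the adjusted p-values beside them come from the z-scores. Of the 5 members that could be tested (Gja4, Gjb1, Gjb2, Gjc1 and Panx1), 1, 2, 1, 2 and 2 were called in subclones 1 to 5, where 26.3%, 26.0%, 19.5%, 37.3% and 21.9% of all genes tested were called. That gave 8 calls out of 25, of which 7 were lower and 1 (Gjb1 in subclone 3) was higher in the subclone. Of all genes, 13.6%, 12.6%, 10.9%, 19.2% and 11.7% were called lower in subclones 1 to 5, and 8.65% higher in subclone 3. No member met the study's further requirement on the z-score, which 0.152%, 0.144%, 0.173%, 0.202% and 0.173% of all genes met in subclones 1 to 5.

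Gjb2 was lower in subclone 1 by a log2(TPM) difference of -2.72 (SE 0.213, adjusted p = 0.000139), in subclone 2 by -2.16 (SE 0.128, adjusted p = 5.56e-05) and in subclone 5 by -1.57 (SE 0.220, adjusted p = 0.000589). In subclone 4 the difference was -0.58 (SE 0.136, adjusted p = 0.00510). This last call was lost by the unequal-variance test (adjusted p = 0.0167), with log2(TPM + 0.1) over genes above 0 in any library (0.0115), with centring on the median (0.0159) and without any one of WT5 replicates 1, 3 and 4 or subclone 4 replicates 1, 2 and 4 (adjusted p from 0.0102 to 0.0158). In subclone 3 the difference of -0.45 (SE 0.148, adjusted p = 0.0119) was not called, and without WT5 replicate 2 it was. The median log2(TPM) difference of all genes tested lay between -0.10 and -0.04 in these comparisons.

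Gja4 had 0.07 to 0.46 TPM in the subclones, so that all 20 libraries lay below the lowest of WT5 (0.48 TPM), and 10.1% of genes above 0 TPM in any of these libraries had no overlap between the subclones and WT5 in either direction. It was called lower in subclone 2 (log2(TPM) difference -1.15, SE 0.154, adjusted p = 0.00105), in subclone 4 (-1.46, SE 0.335, adjusted p = 0.00416) and in subclone 5 (-1.26, SE 0.146, adjusted p = 0.00208). Subclone 1 (-1.33, SE 0.499, adjusted p = 0.0480) and subclone 3 (-0.98, SE 0.275, adjusted p = 0.0156) were not called. The unequal-variance test called none of the 5 where limma called 3 (adjusted p for those 3 from 0.0183 to 0.0421). With all WT5 and subclone libraries in 1 fit the calls in subclone 2 (0.0231) and subclone 5 (0.0152) were lost, and in subclone 4 the call was lost when any single WT5 replicate was left out, or subclone 4 replicate 1 or 2 (adjusted p from 0.0110 to 0.0130). Subclone 1 gained a call with a pseudocount of 1 (0.00430) and without its replicate 3, and subclone 3 without its replicate 1 or 4. The mean in each subclone, 0.208 to 0.283 TPM, lay close to the 0.225 TPM of polyclonal WT cells. As WT5 stands in another table than the subclones, a difference that all subclones share cannot be told apart from a difference between tables or in time in culture.

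**Figure D4:**
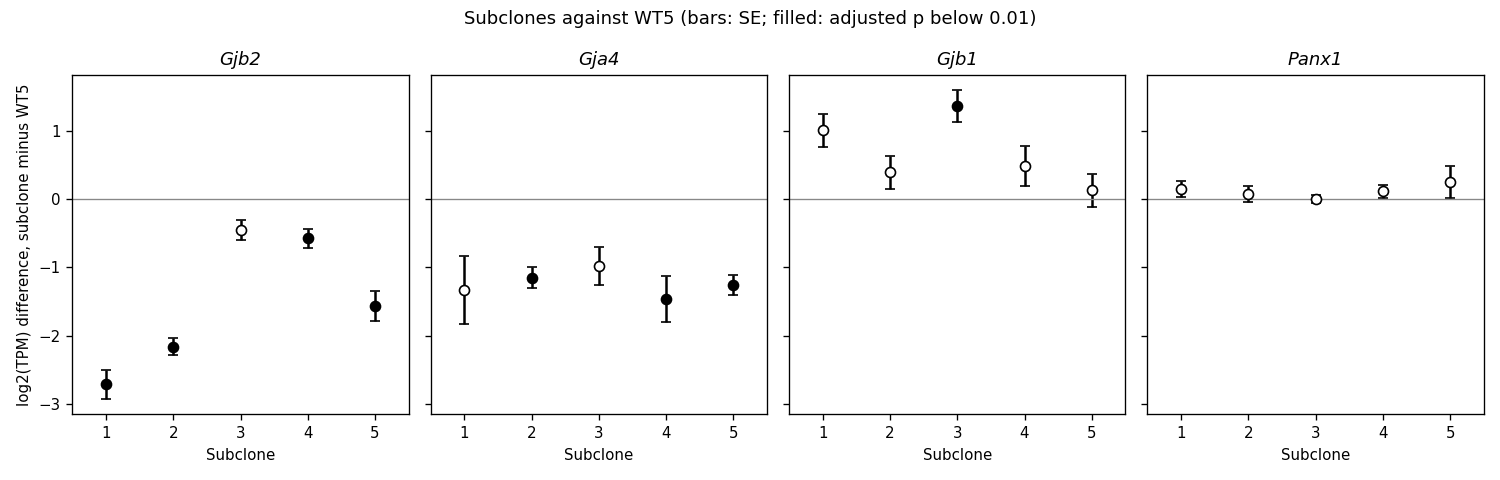
Difference in log2(TPM), each subclone minus WT5 (y axis), for Gjb2, Gja4, Gjb1 and Panx1 in subclones 1 to 5 (x axis). Points are estimates with SE, filled where the adjusted p-value of the z-score difference was below 0.01. Gjb2 is spread from -2.72 to -0.45, Gja4 lies between -1.46 and -0.98, and Panx1 is near 0.

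Gjb1 had 1.00, 0.77, 0.94 and 0.99 TPM in subclone 3 and 0.68, 0.82, 0.81 and 0.59 TPM in subclone 1, above every library of WT5 in both. The share of all genes without overlap between a single subclone and WT5 was not counted. In subclones 2, 4 and 5 Gjb1 had 0.33 to 0.69 TPM, a range that overlapped with WT5. It was called higher in subclone 3 (log2(TPM) difference 1.37, SE 0.230, adjusted p = 0.00314) and in no other subclone, with an adjusted p of 0.0167 in subclone 1. The call in subclone 3 was lost by the unequal-variance test (adjusted p = 0.0439), without WT5 replicate 1 (0.0113) and without subclone 3 replicate 3 (0.0113), and subclone 1 gained a call without WT5 replicate 3 (0.00558), when TPM was rescaled without predicted and mitochondrial genes (0.00804) and with all WT5 and subclone libraries in 1 fit (0.00374). Gjc1 and Panx1 were called in no subclone. Panx1 lay between 2.38 and 5.31 TPM in the subclones, of which the highest was replicate 2 of subclone 5, and all 20 libraries exceeded the highest polyclonal library (1.3 TPM), where 34.8% of genes had no overlap between the subclones and polyclonal WT cells in either direction.

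Gja1 was at or below 0.37 TPM in all monoclonal libraries. It had 0.21, 0.20, 0.21 and 0.37 TPM in subclone 2 and 0.11, 0.24, 0.21 and 0.15 TPM in subclone 3, ranges that overlapped with WT5. Subclone 4 had 0.08, 0.04, 0.04 and 0 TPM, subclone 5 had 0.03, 0.02, 0.01 and 0.04 TPM, and subclone 1 had 0.01, 0, 0.02 and 0.01 TPM, all below the lowest WT5 library. How many of all genes lacked overlap between a single subclone and WT5 was not counted. Because of these zeros Gja1 was tested with log2(TPM + 0.1) over 21939 genes, of which 14.6%, 15.0%, 9.42%, 32.0% and 11.2% were called in subclones 1 to 5. Against WT5 it was lower in subclone 1 (log2(TPM + 0.1) difference -1.47, SE 0.200, adjusted p = 0.00174), in subclone 4 (-1.15, SE 0.255, adjusted p = 0.00582) and in subclone 5 (-1.29, SE 0.206, adjusted p = 0.00344). The adjusted p was 0.643 in subclone 2 and 0.598 in subclone 3. At these levels a pseudocount of 0.1 makes the differences smaller than those of TPM itself, and the reads behind the values are unknown.

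**Figure D5:**
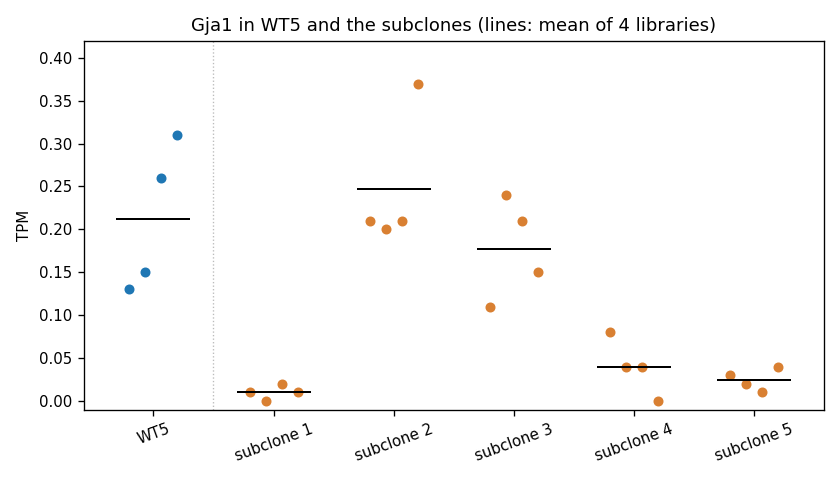
TPM of Gja1 on the y axis in the 4 libraries (points) of WT5 and of each subclone, with group means (lines); the dotted line divides the tables. Subclones 1, 4 and 5 lie at or below 0.08 TPM, and WT5 and subclones 2 and 3 between 0.11 and 0.37 TPM.

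A comparison among the subclones alone, by an F test in limma over their 20 libraries, is free of the difference between tables. Gjb2 (adjusted p = 4.33e-08) and Gjb1 (adjusted p = 0.00117) were called, 2 of the 5 members tested, where 25.0% of all genes were called. Gja4 (adjusted p = 0.869), Panx1 (0.659) and Gjc1 (0.314) were not. With log2(TPM + 0.1), Gja1 was called as well (adjusted p = 9.16e-06), where 14.4% of all genes were. No member reached a z-score difference of 1 between any pair of subclones. Of all genes tested, 0.635% were called and also had such a difference above 1. With log2(TPM + 0.1) this share was 0.150%.

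Pairs of subclones were compared in 1 fit, where 3.51% to 20.5% of all genes were called per pair and 9.85% over the 10 pairs together. For Gjb2, 7 of the 10 pairs differed at an adjusted p below 0.01. In the order of levels, subclones 3 and 4 did not differ beyond their spread (adjusted p = 0.610, log2(TPM) difference 0.13, SE 0.200), subclone 5 was lower than subclone 4 (adjusted p = 0.000579), and the steps from subclone 5 to subclone 2 (0.0170) and from subclone 2 to subclone 1 (0.0775) were not called. For Gjb1, subclone 3 was higher than subclone 4 (adjusted p = 0.00466) and than subclone 5 (0.00104), and subclone 1 was higher than subclone 5 (0.00974). For Gja1, the 6 pairs called of 10 were those between subclone 2 or 3 on the one side and subclone 1, 4 or 5 on the other, and none within these sets, where with log2(TPM + 0.1) 2.29% to 11.6% of all genes were called per pair and 5.62% over the 10 pairs together. By group means the subclones stood in a different order for each of these genes, but not every step was called. Subclone 1 had the lowest mean of Gjb2 and Gja1 and the second highest of Gjb1. It was not called apart from subclone 2 for Gjb2 or from subclones 4 and 5 for Gja1. For Gjb1 it was called only against subclone 5. Subclone 4 was called lower than subclones 2 and 3 for Gja1, and higher than subclones 1, 2 and 5 for Gjb2.

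Over the 24 libraries of WT5 and the subclones, the genes with the highest correlation with Gjb2 among 12134 compared were Ttc39c (Pearson r = 0.871), Lynx1 (0.843), a modulator of nicotinic acetylcholine receptors, and Gsdmd (0.836), which forms the membrane pores of pyroptosis. These r values describe log2(TPM + 0.1), and libraries of 1 line share their clone. The mean of Gsdmd was 2.30 TPM in WT5, 0.0425 TPM in subclone 1 and 0.125 TPM in subclone 2, but 1.51, 1.80 and 2.06 TPM in subclones 3, 4 and 5. In polyclonal WT cells, which were not used for this choice, Gsdmd had a mean of 0.0725 TPM, while Gjb2 was at its highest there. For Gjc1 the highest were E2f3 (0.725), a transcription factor of the cell cycle, Fam131a (0.723) and Trim26 (0.721), a ubiquitin ligase. Gjc1 itself was not called among the subclones (F test in limma, adjusted p = 0.314), so no called difference stands behind these r values.

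Genes that act with connexins or pannexins were counted from lists chosen by function. Of 31 gap junction partners and turnover genes, 30 were tested and 21 were called between WT5 and polyclonal WT cells, 12 higher and 9 lower, near the background of 65.5%, with a median z-score difference of -0.01 beside 0.01 over all genes. Those named by size are Cdh2 (N-cadherin), with 1.80 to 2.67 TPM in polyclonal WT cells and 19.14 to 21.99 TPM in WT5, Cav1 (caveolin-1), with 28.37 to 30.42 and 194.73 to 228.92 TPM, and Ctnnb1 (beta-catenin), which was lower with 597.81 to 649.47 and 384.53 to 407.72 TPM. Among the subclones, 10 of 30 were called, beside 25.0% of all genes. Of these, Cav1 had means from 61.5 TPM in subclone 4 to 131 TPM in subclone 5, Stambp, a deubiquitinase of endosomal sorting, from 19.6 TPM in subclone 4 to 31.8 TPM in subclone 1, and Cdh1 (E-cadherin) from 60.8 TPM in subclone 4 to 94.8 TPM in subclone 5.

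Of 29 genes of ATP release and purinergic signalling, 17 were tested and 10 were called between WT5 and polyclonal WT cells, 7 higher and 3 lower, beside 65.5% of all genes called (34.5% higher and 30.9% lower), with a median z-score difference of -0.01 against 0.01 over all genes. The ectonucleotidases Entpd3 and Entpd2, which hydrolyse extracellular ATP, were higher in WT5 by z-score differences of 1.08 (adjusted p = 9.62e-07) and 1.02 (adjusted p = 8.09e-08). Entpd2 had 2.77 to 3.87 TPM in polyclonal WT cells and 32.87 to 36.71 TPM in WT5, and Entpd3 had 0.15 to 0.26 and 2.14 to 2.73 TPM. The adenosine receptor Adora2b was higher by 0.88 (adjusted p = 0.00313), with 0.12 to 0.68 and 2.11 to 2.63 TPM. Among the subclones 5 of 16 were called, beside 25.0% of all genes, and Adora2b had means from 1.42 TPM in subclone 1 to 4.42 TPM in subclone 4. The others named by size were Entpd3, with means from 0.803 TPM in subclone 3 to 1.56 TPM in subclone 5, and Adora1, from 24.8 TPM in subclone 2 to 35.6 TPM in subclone 4.

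Of 11 other large-pore channel genes, 5 were tested, all subunits of the volume-regulated anion channel, and 2 were called between WT5 and polyclonal WT cells, beside 65.5% of all genes. Lrrc8c was higher in WT5 with 12.06 to 14.26 TPM against 1.68 to 2.04 TPM (z-score difference 0.84, adjusted p = 1.41e-07), and Lrrc8b with 25.50 to 28.08 TPM against 11.30 to 15.28 TPM (0.26, adjusted p = 0.000111). Among the subclones their adjusted p (F test in limma) lay between 0.0421 and 0.124, and none was called.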

How the data were processed

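RNA of 28 libraries of wild-type mIMCD-3 cells was sequenced, 4 per group. After removal of adapter and low-quality reads, the authors used STAR 2.7.3a for alignment to GRCm38 (Ensembl annotation) and RSEM 1.3.1 for quantification, and deposited TPM with 2 decimals. Polyclonal WT and WT5 libraries stand in one table and subclones in the other. Since TPM does not retain depth, no counting error can be given. The methods call the libraries biological replicates and a legend calls them technical ones, so p-values measure the spread between these libraries, which may be technical.

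Tables were joined by Ensembl identifier, and 45143 of 45706 identifiers matched a symbol. Groups were compared two-sided with limma 3.58.1 in R 4.3.3 on z-scores of log2(TPM) without a pseudocount, with Benjamini-Hochberg adjustment. Each fit held only the libraries compared, and the F test only the subclones. Members at 0 in any library of a comparison were tested on log2(TPM + 0.1). SE of log2 differences come from the same fit without z-scores, whereas the adjusted p-values printed beside log2 differences come from the z-scores. The fit was tested on simulated data. Exact permutation tests used scipy 1.17.1. Alternatives covered the test, pseudocounts of 0.1 and 1, filters, scaling, thresholds, the replicate number as a block and libraries left out in turn. Coordinates are those of GENCODE on GRCm38, and start sites those of RefSeq on GRCm38.p6. Shared stretches were counted between the longest transcript of each member and all transcripts of other genes.

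The members and lists were chosen with earlier results of these data known. Genes named are the members, marker genes, up to 3 genes per list and comparison with a mean of at least 1 TPM, a call and the largest z-score difference, and the 3 genes most correlated with each of the 2 members (at least 1 TPM) that ranged most over the subclones. Cdh1 as an epithelial marker, Flt1, Pecam1, Cdh5, Emcn, Lum, Dcn, Col1a1, Acta2, Tagln and the stratified epithelium markers were picked from the marker lists after their values were seen. Some connexin genes other than the members are not reported here.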

Additional observations from a re-analysis of the deposited data

Results flagged for a closer look

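Within the groups of 4 libraries, the gap between the most extreme library and its neighbour, divided by the range of the group, was compared with the critical value of Dixon's test for the 8 members. In 9 of the 50 groups with any spread it was exceeded, where chance flags about 1 in 20. Of these, 7 were in Gja5 and Gjb5, whose values lie near the limit of the tables. They were Gja5 at 0.03 TPM in polyclonal replicate 2 and in WT5 replicate 2 and at 0.01 TPM in subclone 1 replicate 4 and subclone 4 replicate 3, and Gjb5 at 0.02 TPM in subclone 2 replicate 4 and subclone 4 replicate 1 and at 0.24 TPM in polyclonal replicate 2, where the other 3 libraries had 0.03 TPM. Gja1 stood apart at 0.37 TPM in subclone 2 replicate 4, and Gjc1 at 49.50 TPM in polyclonal replicate 4.

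The difference from WT5 differed among the subclones for Gjb2 (F test in limma, adjusted p = 4.33e-08), Gja1 (log2(TPM + 0.1), adjusted p = 9.16e-06) and Gjb1 (adjusted p = 0.00117). As all subclones are set against the same WT5 libraries, this equals the test among the subclones themselves.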

How the results depend on the processing

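The number of members called was 4 between WT5 and polyclonal WT cells, 8 over the comparisons of the subclones with WT5 and 2 among the subclones. With a z-score difference above 1 required as well, the numbers were 1, 0 and 0. The comparisons with WT5 gave 3 calls by the unequal-variance test and 4 with a mean TPM of at least 1, a filter that fewer members pass and that left 1 call among the subclones. With single libraries left out, the numbers ranged from 3 to 4, from 5 to 9 and from 2 to 2, and the 5 was reached without WT5 replicate 1. Gja1 between WT5 and polyclonal WT cells kept its call and direction under all 20 alternatives run.

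Whether replicate numbers pair the libraries cannot be decided here, because only libraries of the same number were correlated. For WT5 and polyclonal WT cells, r of their deviations from group means lay between -0.0186 and 0.00633. For WT5 and the subclones r lay between -0.0514 and 0.0812. Among the subclones it lay between -0.328 and 0.153, above 0.1 in 6 of 40 pairs. With the replicate number as a block, 4, 6 and 2 members were called. Gja4 and Gjb2 in subclone 4 and Gjb1 in subclone 3 were not called under the block, and Gjb1 in subclone 1 was.

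A change of sign occurred only in values that had not passed the test, and its cause was not tested. For Gjc1 in WT5 against polyclonal WT cells, the difference of -0.0054 became 0.0015 with a pseudocount of 1, 0.032 with genes above 0 in any library and 0.19 without z-scores. For Gjc1 in subclone 3 against WT5 it became -0.056 without z-scores. For Panx1 in subclone 3, the difference of -0.015 became 0.0046 with a pseudocount of 1, 0.0053 with a mean TPM of at least 1, 0.0056 with genes above 0 in any library, 0.0011 without z-scores, 0.099 centred on the median and 0.015 when rescaled. With single libraries left out, the sign of values that had not passed also changed, so that Gjc1 ranged from -0.018 to 0.011 for WT5 against polyclonal WT cells, and against WT5 from -0.013 to 0.059 in subclone 1, from -0.00061 to 0.035 in subclone 3 and from -0.024 to 0.00046 in subclone 5. Panx1 ranged from -0.011 to 0.055 in subclone 2, from -0.045 to 0.011 in subclone 3 and from -0.013 to 0.040 in subclone 4, and Gjb1 from -0.043 to 0.082 in subclone 5. Levels under 1 TPM, as for Gja1, Gja4 and Gjb1 in the monoclonal lines, rest on an unknown number of reads.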
